A study of Mus musculus with 4 samples.

Results

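The fibroblast growth factor (FGF) readout described here comprised 9 of the 27514 genes that all 4 gene tables share, matched by Ensembl ID. They were the feedback inhibitors Spry1, Spry2, Spry4 and Dusp6, the ETS transcription factors Etv4 and Etv5, and the receptors Fgfr1, Fgfr2 and Fgfr3. The cells came from Swiss Webster mouse embryos in which Cre, knocked into the Tbx1 locus, switched on GFP from a Rosa26 reporter, and live GFP+ cells were sorted from pooled embryos. Ctrl embryos were Tbx1Cre/+;Rosa26-GFPflox/+ and cKO embryos were Tbx1Cre/flox;Rosa26-GFPflox/+, each at E8.5, from the upper body, and at E9.5, from the pharyngeal apparatus with the heart. For E9.5 the authors' sample list also includes the back, in both genotypes. Because the Cre knock-in itself inactivates a copy of Tbx1, the Ctrl cells carried only 1 intact copy, and all 4 groups carried the Cre and the reporter. Each combination of genotype and stage was 1 droplet library, so no difference below has a replicate check. At E8.5 the authors list a higher range of somite numbers for the cKO pool than for the Ctrl pool. Genotype and exact stage cannot be told apart there. The question was how the readout of FGF signalling varied across the cell groups of the Tbx1 lineage, with stage and with loss of Tbx1.

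FGF ligands bind receptor tyrosine kinases at the cell surface, which switch on the RAS and ERK kinase cascade inside the cell. ERK then raises transcription of the ETS factors Etv4 and Etv5, and of Spry and Dusp6 genes whose products damp the same cascade, so that the transcripts of these genes are widely used as a readout of the signal. In the pharyngeal region the pathway is known for its part in the outgrowth of the arches and in the addition of heart progenitors to the outflow tract, and Fgf8 is known to act together with Tbx1 there.

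The libraries held 1434 (Ctrl E8.5), 1090 (cKO E8.5), 5453 (Ctrl E9.5) and 6266 (cKO E9.5) cells and between 25391654 and 104773150 unique molecular identifiers (UMIs, each 1 captured transcript). The median number of UMIs per cell lay between 15910.5 and 23984, highest in cKO E8.5, and the median share of mitochondrial UMIs lay between 1.33% and 2.20%. Between 2 and 55 cell barcodes were shared by any pair of libraries, at most 1.01% of a library. Per 1000000 UMIs, Tbx1 itself had 86.4 UMIs in Ctrl against 118 in cKO at E8.5, and 103 against 134 at E9.5. Neither cKO library thus held less Tbx1 than its Ctrl. The counts are of transcript 3′ ends, which need not lie in the part that the floxed allele loses, so they give no check of the labels, and every direction below is between libraries as labelled.

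Cells with 10000 UMIs or more were thinned to that depth and placed by the marker genes they held, using none of the 9 genes. Mesenchyme was the largest gate, with 207, 252, 2185 and 3221 cells in Ctrl E8.5, cKO E8.5, Ctrl E9.5 and cKO E9.5. The multilineage progenitor (MLP) gate held 142, 91, 198 and 181 cells, and the branchiomeric muscle (BrM) gate, for the progenitors of the head and jaw muscles, 79, 47, 318 and 270. The MLP gate needed 4 of the markers Arg1, Rdh10, Vamp8, Aplnr, Nrg1 and Isl1. Aplnr, Nrg1 and Isl1 are among the markers that differ between genotypes. A cKO cell without any of these could not enter, so MLP genotype values cover only cells that kept some of them. The gate of the anterior second heart field or somatic mesoderm (aSHF/SoM) held 31, 46, 209 and 160 cells, the endothelial gate 79, 57, 385 and 109, the cardiomyocyte gate 53, 35, 158 and 113, and the somitic gate 126, 149, 71 and 131. At E9.5 alone, an epithelial gate of 670 Ctrl and 168 cKO cells and a posterior second heart field (pSHF) gate of 35 and 94 cells passed the minimum of 30 cells, and in cKO E9.5 alone a neural gate of 81 cells. In every gate used, its own markers outnumbered those of any other list among the 10 leading genes. Between 590 and 985 cells at E9.5, and 545 and 291 at E8.5, met no gate and enter only values over all cells with 10000 UMIs or more.

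Levels are UMIs per 1000000 UMIs of the shared genes (UPM), summed over the cells of a gate, with exact Poisson 95% intervals that cover counting error only. The 6 feedback and target genes summed, Spry1, Spry2, Spry4, Dusp6, Etv4 and Etv5, were lowest in mesenchyme or the somitic gate in every library. At E8.5 the aSHF/SoM gate stood highest, at 304 UPM in Ctrl and 315 in cKO. In Ctrl E8.5 that gate held 31 cells, and Spry2 alone gave 141 UPM of its sum. The BrM gate followed, at 215 UPM in Ctrl E8.5 and 280 in cKO E8.5. Its interval overlapped that of the MLP gate in both libraries, and that of aSHF/SoM in cKO. At E9.5 the epithelial gate, at 313 UPM in Ctrl and 256 in cKO, and the BrM gate, at 303 and 237, led in both libraries, and their intervals overlapped in each. In cKO E9.5 the BrM interval also overlapped that of the MLP gate, at 221 UPM. Most of the BrM sum was Dusp6 alone, and the other 5 genes summed to 108 UPM there in Ctrl and 102 in cKO. That was less than in the epithelial (194 and 181 UPM), MLP (160.5 and 154 UPM) and aSHF/SoM (122 and 119 UPM) gates, although the BrM and aSHF/SoM intervals overlapped. For the sum of all 6 in Ctrl E9.5, the gates below the epithelial and BrM gates were the MLP gate (239 UPM), the aSHF/SoM gate (216 UPM) and the cardiomyocyte gate (177 UPM), of which the MLP and aSHF/SoM intervals overlapped. The endothelial (108 UPM), pSHF (88.9 UPM), mesenchyme (75.7 UPM) and somitic (70.3 UPM) gates closed the order, and the interval of each overlapped that of its neighbour. The span between the highest and the lowest gate was 2.49-fold (Ctrl) and 2.12-fold (cKO) at E8.5, and 4.45-fold and 2.86-fold at E9.5.

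**Figure D1:**
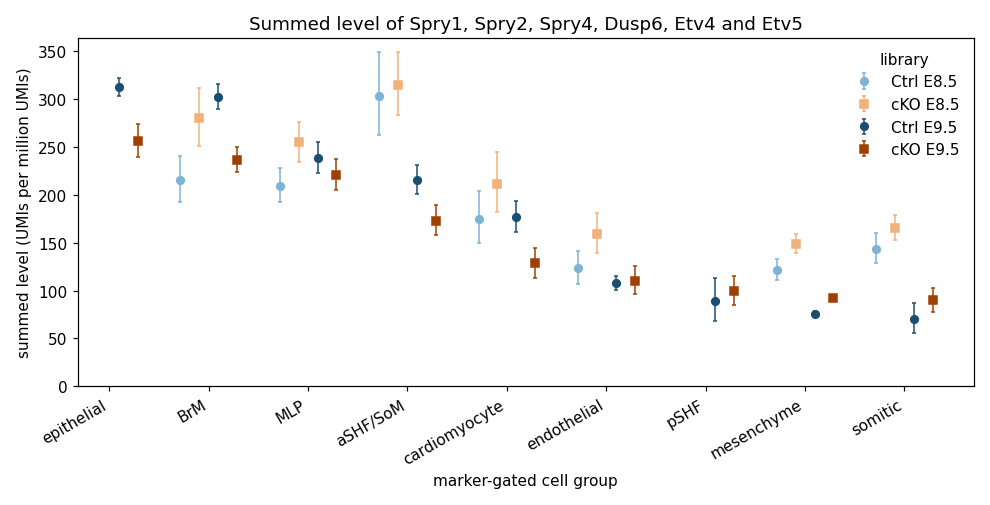
Summed level of the 6 feedback and target genes (y axis, UPM) in each marker-gated cell group (x axis), 1 point per library with its exact Poisson 95% interval. In Ctrl E9.5 the epithelial gate (313) and the BrM gate (303) stand far above mesenchyme (75.7), while at E8.5 the aSHF/SoM gate (304 in Ctrl, 315 in cKO) is the highest.

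Counted cell by cell, the epithelial and BrM gates again stood above mesenchyme in Ctrl E9.5. With each cell thinned to 10000 UMIs, Ctrl E9.5 cells of the epithelial gate held a mean of 3.1 UMIs of the 6 genes and BrM cells 2.89, against 0.695 in mesenchyme. Cells with 5 or more such UMIs made up 23.9% of the epithelial gate (Clopper-Pearson 95% interval 20.7% to 27.3%) and 22.0% of the BrM gate (17.58% to 26.97%) in Ctrl E9.5, but 1.42% of mesenchyme (0.966% to 2.01%). In cKO E9.5 these shares were 18.45% (12.9% to 25.2%), 12.96% (9.20% to 17.56%) and 2.17% (1.70% to 2.74%). The share of such cells was therefore lower in the epithelial and BrM gates of cKO E9.5 and higher in mesenchyme, and the intervals of the libraries overlapped in the epithelial gate and in mesenchyme but not in BrM. In Ctrl E8.5 such cells made up 22.6% of aSHF/SoM (9.59% to 41.1%), 11.97% of MLP (7.13% to 18.48%) and 10.1% of BrM (4.47% to 18.98%). These 3 intervals overlapped. Cells with UMIs of 3 or more of the 6 genes made up 31.2% of the epithelial gate, 22.7% of MLP, 16.75% of aSHF/SoM, 14.6% of cardiomyocytes and 12.3% of BrM in Ctrl E9.5. By this count, for which no intervals were computed, the BrM gate was below the other 4. In cKO E9.5 BrM (12.6%) stood above cardiomyocytes (8.85%) and below the epithelial, MLP and aSHF/SoM gates.

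The Sprouty genes encode intracellular inhibitors of receptor tyrosine kinase signalling. Spry2 (ENSMUSG00000022114, chr14:105891947-105896819 in GRCm38.p6) was highest at E8.5 in the aSHF/SoM gate, which held 141 UPM in Ctrl (114 to 173) and 99.4 in cKO (81.9 to 119.5). The other 6 gates lay between 31.8 and 67.5 UPM in Ctrl and between 46.2 and 68.7 in cKO. The aSHF/SoM interval lay apart from that of the next gate in Ctrl, but in cKO it overlapped that of cardiomyocytes (52.3 to 88.6). In Ctrl E9.5 the epithelial gate (49.6 UPM), aSHF/SoM (45.8 UPM) and MLP (42.1 UPM) were high, while endothelial cells (8.21 UPM), mesenchyme (10.5 UPM) and the somitic gate (11.0 UPM) were low. In cKO E9.5 the MLP gate was highest at 66.3 UPM and mesenchyme lowest at 20.05 UPM. Spry1 (ENSMUSG00000037211, chr3:37639947-37644599) was highest at E9.5 in the epithelial gate, at 54.7 UPM in Ctrl and 51.3 in cKO. Its level in the other gates at E9.5 was between 6.37 and 22.2 UPM in Ctrl, and endothelial cells were lowest in Ctrl at both stages. Spry4 (ENSMUSG00000024427, on chromosome 18) was sparse, from 0 to 8.04 UPM in every gate of every library, with 0 UMIs in aSHF/SoM of Ctrl E8.5, where a count of 3 UMIs corresponds to 4.65 UPM, and in pSHF of Ctrl E9.5, where it corresponds to 4.17 UPM.

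Etv4 (ENSMUSG00000017724, chr11:101769747-101785310) and Etv5 (ENSMUSG00000013089, chr16:22381313-22439570) encode ETS factors of the PEA3 family that act downstream of FGF receptors. Etv4 was highest at E9.5 in the MLP gate, at 39.9 UPM in Ctrl and 32.6 in cKO, and was 1.69 UPM in Ctrl E9.5 somitic cells, where 2 UMIs were counted. Etv5 in Ctrl E9.5 was 61.0 UPM in the epithelial gate, 48.2 in MLP, 38.4 in BrM, 31.6 in cardiomyocytes and 30.1 in aSHF/SoM. Mesenchyme (6.55 UPM) and the somitic gate (5.08 UPM) were low for Etv5, as they were for Etv4 (4.14 and 1.69 UPM). At E8.5 both genes were less uneven, since Etv4 spanned 7.43 to 22.0 UPM and Etv5 10.9 to 34.1 UPM over the gates of Ctrl.

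Dusp6 (ENSMUSG00000019960, chr10:99263231-99267489) encodes the cytoplasmic phosphatase that inactivates ERK. Its level in the BrM gate at E8.5 was 84.4 UPM in Ctrl against 137 in cKO, and at E9.5 it was 194 against 135, so that Ctrl E9.5 was highest and Ctrl E8.5 lowest. In the epithelial gate Dusp6 at E9.5 was 119 UPM in Ctrl against 75.6 in cKO. In mesenchyme it was 52.5, 58.2, 33.0 and 36.0 UPM in Ctrl E8.5, cKO E8.5, Ctrl E9.5 and cKO E9.5, lower in both E9.5 libraries than in both E8.5 libraries. Over the gates of Ctrl E9.5 Dusp6 spanned 8.23-fold, from 23.6 UPM in pSHF to the BrM level.

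Since Etv4 and Etv5 belong to the ETS family, RefSeq promoter windows of GRCm38.p6, from 250 bases before to 50 after each start, were searched on both strands for the ETS core CGGAAG, the longer ETS site CCGGAAGT, which contains that core, the AP-1 site TGACTCA and the T-box site AGGTGTGA. The search covered 8 windows of 6 of the 9 genes, and no window of Spry4, Etv4 or Fgfr1 was searched. Of the 8 windows only that of Dusp6 held a match, to the ETS core, read on the strand opposite to the gene, and none held the other motifs. Over all 32851 windows of 300 bases, 16.9% held the ETS core, 3.89% the longer ETS site, 5.2% the AP-1 site and 1.28% the T-box site, so a match in 1 of 8 windows is near the share among all promoters. The Dusp6 window is shown because it holds the match, in capitals, and the Spry2 window because Spry2 differed most often between the libraries.
Dusp6 promoter window, chr10:99262981-99263280, plus strand: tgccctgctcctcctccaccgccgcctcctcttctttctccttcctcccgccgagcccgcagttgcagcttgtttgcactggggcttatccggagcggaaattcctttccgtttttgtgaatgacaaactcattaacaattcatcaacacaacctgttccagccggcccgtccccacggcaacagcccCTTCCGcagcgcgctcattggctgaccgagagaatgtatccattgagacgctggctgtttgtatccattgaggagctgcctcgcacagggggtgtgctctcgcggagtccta
Spry2 promoter window, chr14:105896770-105897069, minus strand: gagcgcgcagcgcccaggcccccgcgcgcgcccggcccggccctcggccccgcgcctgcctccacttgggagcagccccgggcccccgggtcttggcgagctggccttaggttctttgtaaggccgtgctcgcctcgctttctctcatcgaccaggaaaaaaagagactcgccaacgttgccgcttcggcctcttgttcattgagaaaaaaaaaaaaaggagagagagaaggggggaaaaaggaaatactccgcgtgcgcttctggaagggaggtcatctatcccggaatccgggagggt
A match of letters is a description and not a binding site, and both windows are GC-rich, at 57.3% and 62.7%.

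Fgfr1 (ENSMUSG00000031565, chr8:25518759-25575718) encodes an FGF receptor that is widespread in mesoderm and was found in every gate. In mesenchyme at E8.5 it was 32.9 UPM in Ctrl against 62.8 in cKO, and at E9.5 it was 57.8 against 49.1, with Ctrl E8.5 apart at the low end. The BrM gate held 37.0, 87.9, 54.1 and 49.6 UPM in the same order of libraries, and the MLP gate 33.8, 59.9, 76.2 and 58.7 UPM. Ctrl E8.5 was again the lowest in both gates. Endothelial cells were the lowest gate for Fgfr1 in every library, at 21.4, 37.2, 23.2 and 26.3 UPM, although in cKO E8.5 cardiomyocytes lay at the same 37.2 UPM.

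Fgfr2 (ENSMUSG00000030849, chr7:130162451-130266808), whose epithelial isoform answers FGF10 from the mesenchyme, was highest at E9.5 in the epithelial gate, at 13.5 UPM in Ctrl and 22.4 in cKO. Within it, cells with otic or surface markers held 20.1 UPM in Ctrl (182 cells) and 30.7 in cKO (56 cells). A UMI of Fgfr2 was found in 13.3% of thinned epithelial cells in Ctrl and 19.05% in cKO, against 1.8% of endothelial cells in each library. Endothelial cells, which serve as the background for this gene, had median depths before thinning of 20298 and 17812 UMIs, against 18644 and 17789 in the epithelial gate. Mesenchyme held 3.45, 5.43, 9.41 and 12.4 UPM of Fgfr2 in Ctrl E8.5, cKO E8.5, Ctrl E9.5 and cKO E9.5, higher in both E9.5 libraries. The 3′ counts do not separate the epithelial and mesenchymal isoforms. Fgfr3 (ENSMUSG00000054252, chr5:33721724-33737068) was sparse, and the cardiomyocyte gate held most, at 2.10, 6.98, 6.40 and 7.22 UPM from 2, 6, 17 and 15 UMIs, except that aSHF/SoM of Ctrl E8.5 held 3.1 UPM from 2 UMIs. No other gate passed 3.1 UPM.

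**Figure D2:**
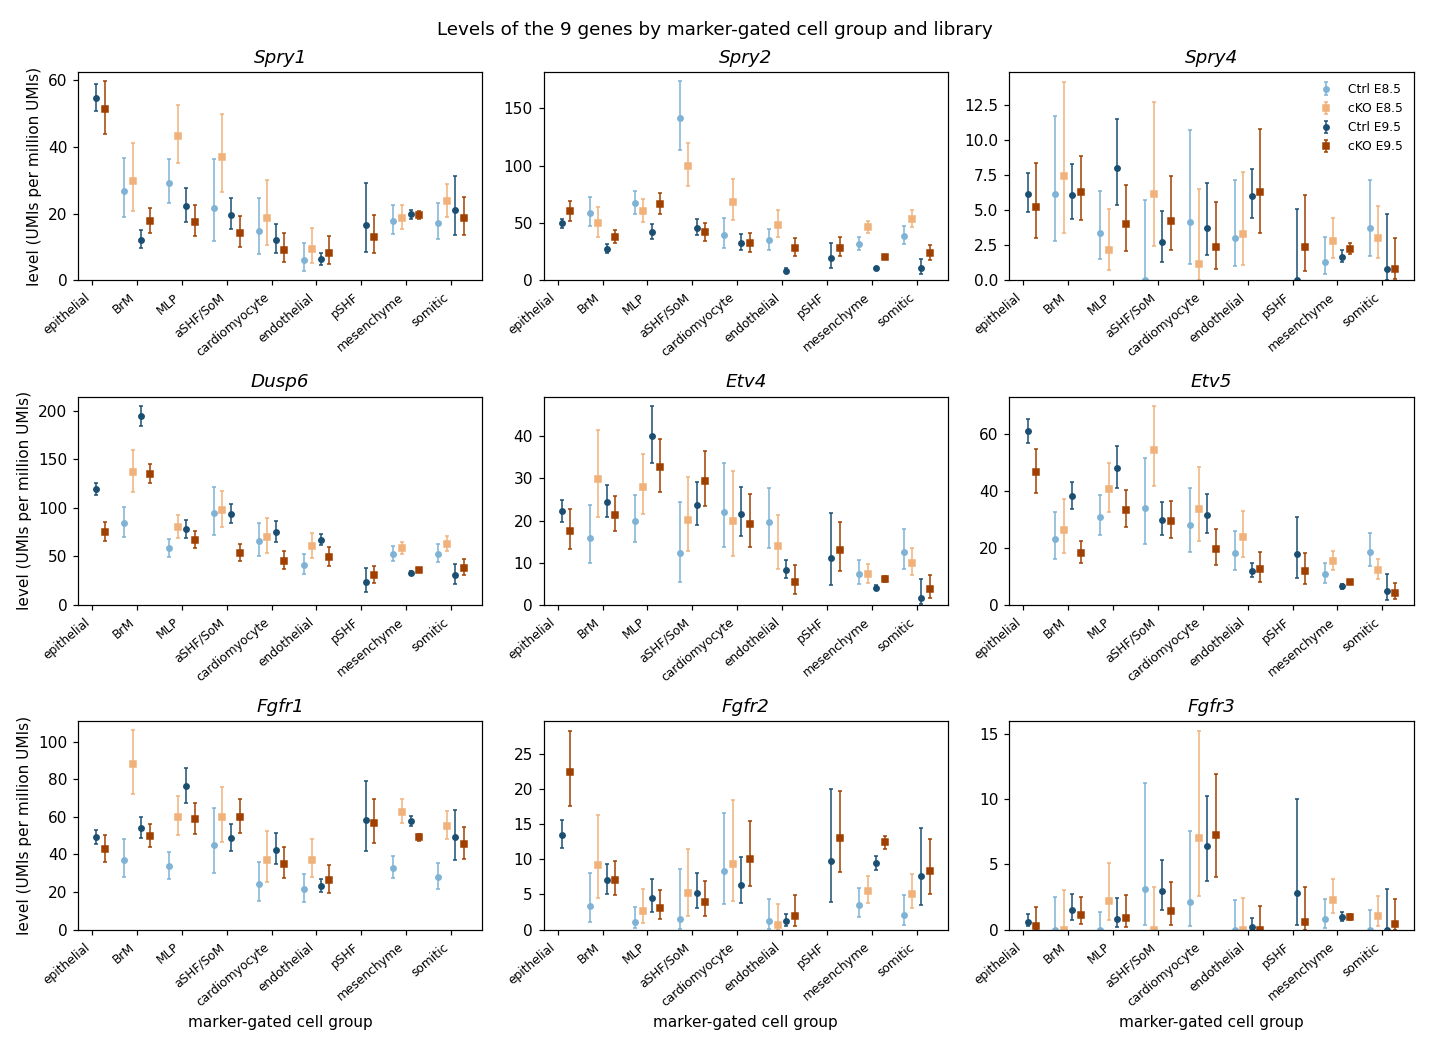
Level of each of the 9 genes (y axis, UPM, a scale of its own in each panel) in each marker-gated cell group (x axis), 1 point per library with its exact Poisson 95% interval. Dusp6 in BrM of Ctrl E9.5 (194), Spry2 in aSHF/SoM of Ctrl E8.5 (141) and the low Fgfr1 levels of Ctrl E8.5 stand out.

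Between cKO and Ctrl at E8.5 the receptor Fgfr1 differed most. It was higher in cKO in all 7 gates, and in 6 of them the log2 ratio of summed UMIs was at least 1.5-fold (0.585 on the log2 scale) above the median of all genes, the limit used for a call throughout. The log2 ratio was 1.25 in BrM (95% interval 0.76 to 1.75), 0.98 in the somitic gate (0.58 to 1.40), 0.93 in mesenchyme (0.64 to 1.24), 0.83 in MLP (0.43 to 1.23), 0.80 in endothelial cells (0.16 to 1.45) and 0.63 in cardiomyocytes (−0.19 to 1.47). In aSHF/SoM it was 0.41 and within the limit. Fgfr1 was also higher at E9.5 than at E8.5 in all 7 gates of Ctrl, with log2 ratios from 0.11 to 1.17, of which 1 was called. The cKO pool had the higher somite numbers at E8.5, so stage and genotype cannot be told apart for this gene. Only genes with 20 UMIs or more in a gate, counted over both libraries, were used, and of 5887 genes with that many in all 7 gates 0.917% were called higher in 6 or more, a number of gates chosen after the Fgfr1 values were seen. The deeper cells of cKO E8.5 moved with this result. With every cell thinned to 10000 UMIs the log2 ratio, relative to the median of all genes, was 1.20 in BrM, 1.05 in mesenchyme, 1.01 in MLP, 0.78 in endothelial cells and 0.66 in the somitic gate, and 0.32, below the limit, in cardiomyocytes.

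Over the 9 genes, 15 of 46 gene-gate pairs with enough UMIs were called higher in cKO at E8.5 and 1 lower, against 10.9% and 7.78% of all 56865 pairs and 18.7% in either direction. The median log2 ratio of all genes lay between −0.01 and 0.04 over the gates. Besides Fgfr1, the call with the most UMIs was in the BrM gate, Dusp6 at 84.4 UPM in Ctrl and 137 in cKO, a log2 ratio of 0.70 (0.35 to 1.05), which relative to the median was no call with cells gated on full counts (0.44) or without the markers that differ between genotypes (0.57). Etv4 in the same gate was 15.8 and 29.8 UPM, a log2 ratio of 0.92 (0.13 to 1.74). In aSHF/SoM, a gate of 31 and 46 cells, Spry1 (0.77), Etv4 (0.71) and Etv5 (0.68) were called higher, each with an interval that spans 0. Spry2 was called higher in cardiomyocytes (log2 ratio 0.79, but −0.17 relative to the median with cells gated on full counts), Spry4 in mesenchyme (1.08, from 17 and 5 UMIs), and Fgfr2 in the somitic gate (1.28) and mesenchyme (0.65). The only lower call was Etv5 in the somitic gate, at 18.8 UPM in Ctrl and 12.2 in cKO, with a log2 ratio of −0.62 (−1.24 to −0.01). The 6 feedback and target genes summed were above the median of all genes in 7 of 7 gates, by 0.06 to 0.36 on the log2 scale, and in none past the limit. With cells gated on full counts the BrM value, 0.36, became −0.0595, and without the markers that differ between genotypes the mesenchyme value, 0.27, became 0.0844.

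**Figure D3:**
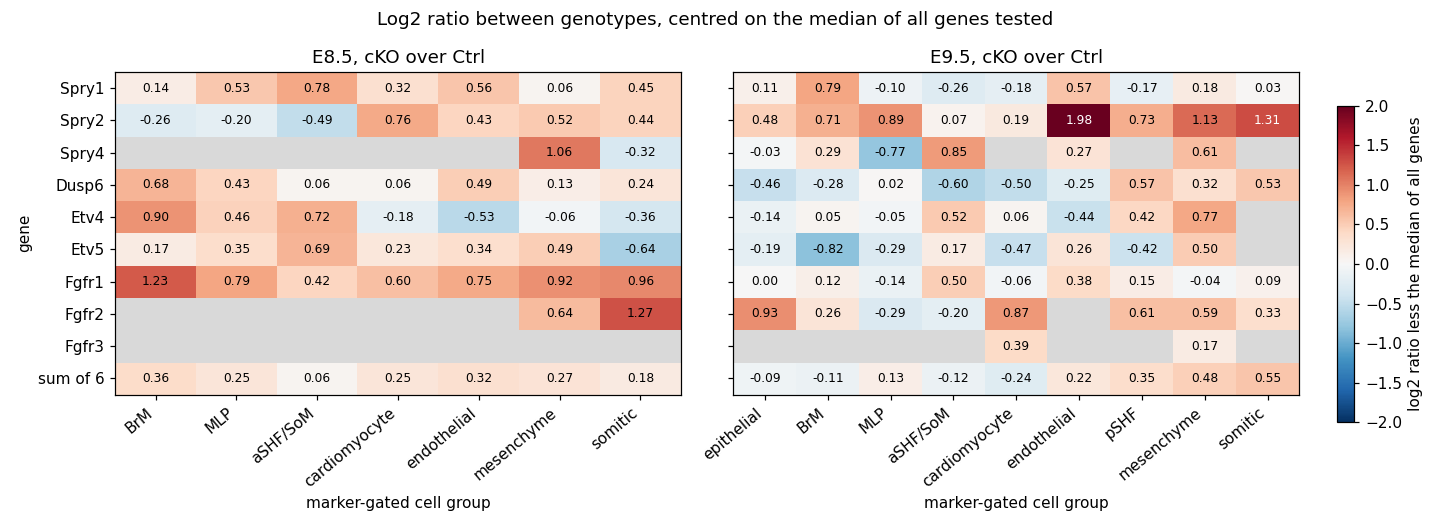
Log2 ratio of cKO to Ctrl relative to the median of all genes (colour, labelled in each cell) for each of the 9 genes and the sum of 6 (rows) in each marker-gated cell group (columns), at E8.5 and at E9.5; pairs with under 20 UMIs are grey. Fgfr1 is past the limit in 6 of 7 gates at E8.5, and Spry2 in 6 of 9 gates at E9.5.

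At E9.5 the gene that differed most between the genotypes was Spry2, called higher in cKO in 6 of 9 gates. In mesenchyme it was 10.5 UPM in Ctrl and 20.05 in cKO, a log2 ratio of 0.93 (0.77 to 1.10), from 401 and 1139 UMIs. In endothelial cells it was 8.21 and 28.2 UPM, a log2 ratio of 1.78 (1.25 to 2.31), and in MLP cells 42.1 and 66.3 UPM, a log2 ratio of 0.66 (0.35 to 0.96). The somitic gate (1.11), pSHF (0.55, interval −0.34 to 1.52) and BrM (0.47, interval 0.17 to 0.76) were also called, since the median log2 ratio of all genes lay between −0.24 and −0.19 over the gates and calls are made relative to it. With cells gated on full counts the relative values of the somitic gate (0.35) and pSHF (0.13) were no calls, and without centring neither were those of pSHF and BrM. The epithelial, aSHF/SoM and cardiomyocyte gates had log2 ratios of 0.28, −0.13 and −0.02. Of 7274 genes with enough UMIs in all 9 gates, 4.07% were called higher in 6 or more, again a number of gates chosen after the values were seen. The summed mesenchyme markers in the endothelial gate were 118 UPM in Ctrl and 201 in cKO, with all 10 markers present in both, and the endothelial list was 2866 and 2504 UPM with none of its 10 markers at 0. Their part in the Spry2 value was not tested.

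The receptor Fgfr1, in contrast to E8.5, had no call at E9.5 in 9 gates, with log2 ratios from −0.38 to 0.30. Whether the genotype difference itself differed between stages has no test with 1 library per group. Fgfr2 was called higher in the epithelial gate, at 13.5 and 22.4 UPM with a log2 ratio of 0.73 (0.32 to 1.14), and in cardiomyocytes (0.66), pSHF (0.42) and mesenchyme (0.40, interval 0.21 to 0.59). The summed neural markers in the epithelial gate were 17.4 UPM in Ctrl and 35.9 in cKO, with 2 of 9 at 0 in each, and the summed epithelial markers 1855 and 1531 UPM with none of 9 at 0, and their part was not tested.

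Dusp6 and Etv5 had the 2 lower calls in cKO at E9.5 that rested on the most UMIs, and stood above the median of all genes in only 4 and 3 of 9 gates. Etv5 in BrM was 38.4 UPM in Ctrl and 18.3 in cKO, a log2 ratio of −1.07 (−1.42 to −0.72) and the only Etv5 call. Dusp6 in aSHF/SoM was 94.0 and 53.9 UPM, a log2 ratio of −0.80 (−1.09 to −0.52) and the only Dusp6 call, which was lost at a relative value of −0.53 with cells weighted equally or thinned. The log2 ratio of Dusp6 was also negative in cardiomyocytes (−0.71), the epithelial gate (−0.66), BrM (−0.53) and endothelial cells (−0.44), each with an interval below 0 but within the limit once the median of all genes was taken off, and it was 0.12 (0.02 to 0.23) in mesenchyme. In the BrM gate 77.4% of thinned Ctrl cells and 64.1% of cKO cells held a UMI of Dusp6, against 18.3% of Ctrl somitic cells and 19.15% of cKO pSHF cells, the lowest gates. No gate was taken to lack Dusp6, so its background share is not known. The BrM gate also differed in its markers: the BrM list summed to 572 UPM in Ctrl and 488 in cKO, the aSHF/SoM list to 172 and 75.2 UPM, and the somitic list to 54.3 and 103 UPM, and their part in the Etv5 and Dusp6 values was not tested.

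The remaining calls at E9.5 were Etv4 in mesenchyme, at 4.14 and 6.16 UPM with a log2 ratio of 0.57 (0.30 to 0.85), Spry1 in BrM, at 12.2 and 17.8 UPM with 0.54 (0.10 to 0.99), and Spry4, higher in mesenchyme (0.41) and aSHF/SoM (0.65) and lower in MLP (−1.01, interval −2.08 to −0.02, but 0.0185 relative to the median without the markers that differ between genotypes). In all, 14 of 68 pairs were called higher and 3 lower, against 11.5% and 11.6% of all 91424 pairs and 23.1% in either direction. Without taking off the median of all genes the split was 7 higher and 8 lower. The sum of 6 was past the limit in none of 9 gates. In mesenchyme it was 75.7 UPM in Ctrl and 92.1 in cKO, and over all gated cells 150.0 and 125 UPM, the opposite order. The epithelial gate, the highest for the sum in Ctrl, made up 13.7% of these cells in Ctrl and 3.03% in cKO, cells that met no gate included. The part of this share in the opposite order was not tested.

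Between the stages Spry2 was lower at E9.5 in most gates of both genotypes. In Ctrl it was called lower in 6 of 7 gates, with log2 ratios of −2.09 in endothelial cells (34.8 UPM at E8.5 and 8.21 at E9.5), −1.82 in the somitic gate, −1.62 in aSHF/SoM, −1.60 in mesenchyme, −1.11 in BrM and −0.68 in MLP. In cKO it was called lower in 5 of 7, with log2 ratios between −1.25 in aSHF/SoM and −0.78 in endothelial cells, while BrM (−0.40) and MLP (0.14) were within the limit. Of genes with enough UMIs in all 7 gates, 4.89% of 7813 were called lower in 6 or more gates in Ctrl and 4.99% of 7350 in 5 or more in cKO, numbers of gates again chosen after the values were seen. Etv5 was called lower in 5 of 7 gates of cKO, from −0.77 in cardiomyocytes to −1.55 in the somitic gate, which became 0.49 relative to the median with 1 more marker required, and in 3 of 7 of Ctrl, the somitic gate (−1.89), mesenchyme (−0.73) and endothelial cells (−0.60). The stage and genotype comparisons share libraries, so they are not independent of each other, and the stages also differed in the tissue dissected.

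Of the other feedback and target genes, Dusp6 and Etv4 were called in opposite directions between the stages in different gates of Ctrl. In cKO none of the calls of Spry1, Spry4, Dusp6 and Etv4 was higher at E9.5. In mesenchyme Dusp6 was lower at E9.5 in Ctrl (log2 ratio −0.67, −0.89 to −0.45) and in cKO (−0.70, −0.86 to −0.53), while in BrM of Ctrl it was higher (1.20, 0.94 to 1.48) and in BrM of cKO its level was 137 UPM at E8.5 and 135 at E9.5. Dusp6 was also called lower in the somitic gate of both genotypes (−0.79 and −0.72) and in aSHF/SoM (−0.86) and cardiomyocytes (−0.61) of cKO. Etv4 in Ctrl was called higher at E9.5 in MLP (1.01) and aSHF/SoM (0.93) and lower in the endothelial gate (−1.23), mesenchyme (−0.84) and the somitic gate (−2.89, from 30 and 2 UMIs, interval −6.00 to −0.91), and in cKO lower in the endothelial (−1.38) and somitic (−1.40) gates. Spry1 was called lower in BrM (−1.13) and MLP (−0.40) of Ctrl, and in MLP (−1.31), aSHF/SoM (−1.38), BrM (−0.75) and cardiomyocytes (−1.03) of cKO. Spry4 was called higher in MLP (1.25) and endothelial cells (0.97) of Ctrl. Of the receptors, Fgfr1 was called higher at E9.5 in MLP of Ctrl (1.17, 0.83 to 1.53) and lower in BrM of cKO (−0.82), and Fgfr2 was called higher in mesenchyme of Ctrl (1.45) and of cKO (1.19). The other Fgfr2 calls rested on fewer UMIs, higher in BrM (1.03) and aSHF/SoM (1.73, from 1 and 19 UMIs, interval −0.92 to 7.11) and lower in cardiomyocytes (−0.39) of Ctrl, and higher in the somitic gate of cKO (0.71). With cells gated on full counts the cardiomyocyte and somitic values turned to 0.0596 and −0.10 relative to the median. Fgfr3 was called lower in mesenchyme of cKO (−1.28, from 14 and 54 UMIs).

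In Ctrl 9 of 51 pairs were called higher and 17 lower at E9.5, against 18.1% and 15.4% of all 68281 pairs and 33.5% in either direction. Without taking off the median of all genes, which lay between 0.22 and 0.29 over the gates, the split was 16 higher and 15 lower. In cKO 2 of 50 pairs were called higher and 22 lower, against 15.6% and 14.3% of all 65999 pairs and 29.9% in either direction. The sum of 6 was called lower at E9.5 in aSHF/SoM, the somitic gate and mesenchyme of both genotypes and in cardiomyocytes of cKO. In BrM it was 215 and 303 UPM in Ctrl, a log2 ratio of 0.49, and 280 and 237 UPM in cKO, a log2 ratio of −0.24.

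**Figure D4:**
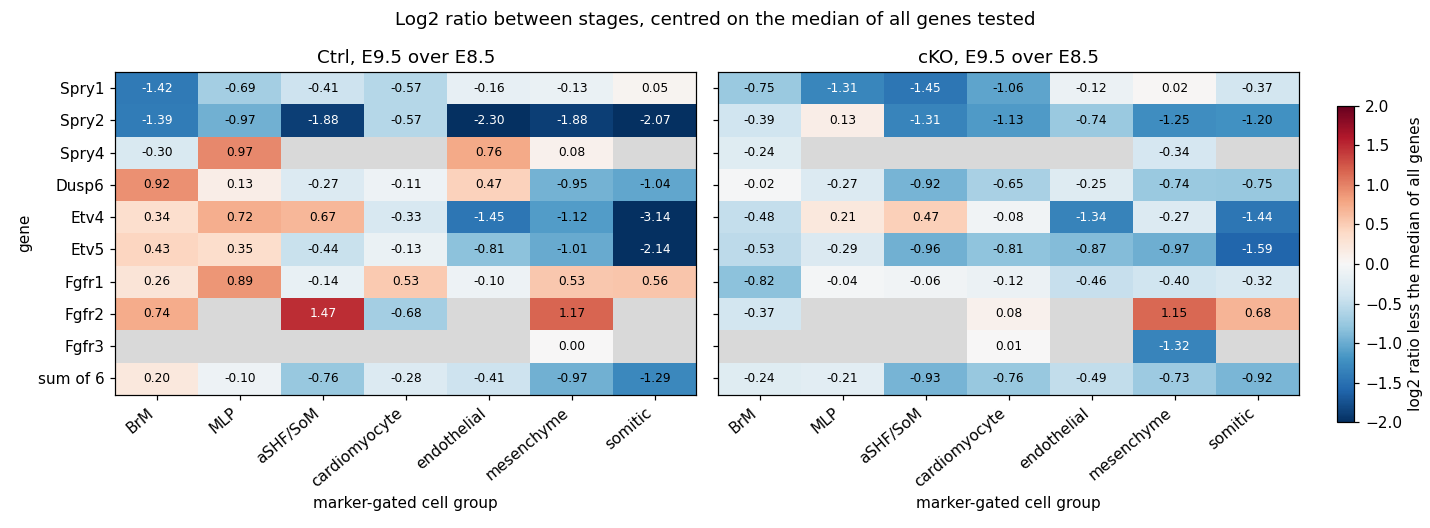
Log2 ratio of E9.5 to E8.5 relative to the median of all genes (colour, labelled in each cell) for each of the 9 genes and the sum of 6 (rows) in each marker-gated cell group (columns), in Ctrl and in cKO; pairs with under 20 UMIs are grey. Spry2 is past the limit, lower at E9.5, in 6 of 7 gates of Ctrl and 5 of 7 of cKO.

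The 6 feedback and target genes followed each other unevenly over the gates. Over 28 combinations of gate and library with 50 cells or more, Pearson's r of log2(UPM + 10) among their 15 pairs ranged from −0.02 to 0.87, with a median of 0.51. Etv4 and Etv5 were the most alike (0.87), Dusp6 and Etv5 followed (0.69), and Spry1 and Spry4 were the least alike (−0.02). With Fgfr1 the 6 genes had a median r of 0.18, with Fgfr2 −0.04 and with Fgfr3 0.11. Spry1 stood higher, at 0.46 with Fgfr1 and 0.45 with Fgfr2. Fgfr3 and Spry4 lay below the added 10 UPM in every gate, and Fgfr2 in most, which narrows the range of their log2 values. Within gates, from cell to cell of 1 library, r was low, with a median of 0.04 and a range of −0.23 to 0.39 over 269 gene pairs in sparse counts. These values are descriptions, since the combinations share libraries and depth. Among 5024 genes, the most like Spry2 were Sall1 (0.83), Npm3 (0.78) and Lin28a (0.75), and the most like Etv5, besides Etv4, were Lsr (0.76), Fgf8 (0.75) and Strbp (0.75). Etv4 was most like Etv5, Isl1 (0.78), which is also a marker of 2 gates, and Capn6 (0.76). Dusp6 was most like Hax1 (0.75), Pdgfa (0.71) and Etv5, Spry1 most like Hs2st1 (0.80), Phgdh (0.78) and Pgap2 (0.76), and Spry4 most like Tpd52 (0.76), Wasl (0.64) and Pdgfa (0.61).

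**Figure D5:**
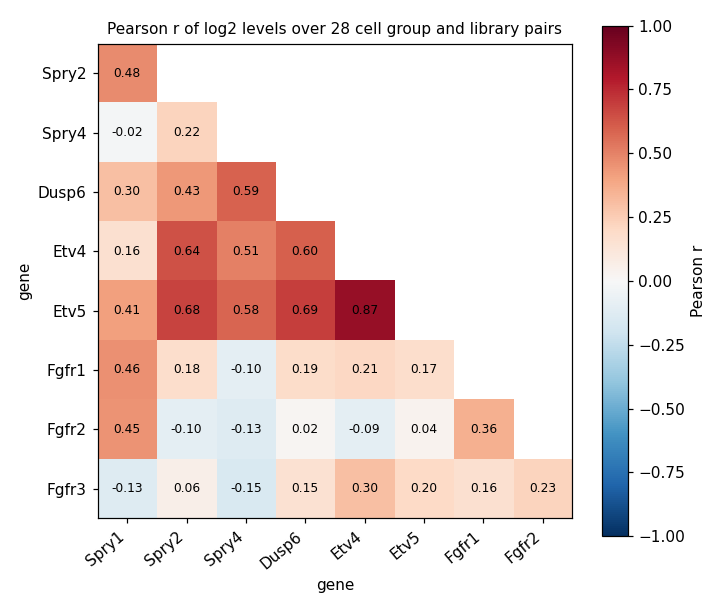
Pearson's r of log2(UPM + 10) between each pair of the 9 genes (both axes) over 28 combinations of cell group and library (colour and number). Etv4 and Etv5 are the most alike (0.87). The receptors have a lower median r with the 6 feedback and target genes than these have with each other, but Spry1 reaches 0.46 with Fgfr1 and 0.45 with Fgfr2.

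Other genes of the pathway were counted from lists of 22 further feedback and target genes, 8 further receptors and co-receptors, 22 transducers and 16 ligands. At E8.5, where 10.9% of all pairs were called higher and 7.78% lower, 28 of 107 feedback and target pairs were called higher in cKO and 4 lower, with the ERK phosphatase Dusp7 higher in 6 of 7 gates (median log2 ratio relative to all genes 0.76) and the FGF receptor inhibitor Il17rd in 3 of 6 (0.66). Dusp9, Spred2 and Shisa2 were each higher in 3 of 7. Of 19 ligand pairs 2 were higher and 7 lower, among them Fgf8, the main pharyngeal ligand, lower in 4 of 7 gates (−0.66), and Fgf10, a ligand of heart progenitors, in 3 of 6 (−0.60). Co-receptor pairs divided 4 higher and 1 lower of 27, and transducer pairs 11 and 3 of 134, the transducer share being below the 18.7% of all pairs called in either direction. Of all genes, 0.917% were higher in 6 or more of 7 gates, as Dusp7 was. No such share was counted for genes lower in several gates, as Fgf8 and Fgf10 were.

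At E9.5, where 11.5% of all pairs were called higher and 11.6% lower, the ligands were mostly lower in cKO, 24 of 44 pairs against 5 higher, with Fgf10 lower in 5 of 6 gates (−1.66), Fgf9 in 3 of 4 (−1.12), Fgf8 in 7 of 9 (−1.02) and Fgf1 in 3 of 3 (−0.97). Over the gates Fgf8 ranged from −1.51 in endothelial cells to −0.11, no call, in the epithelial gate. Fgf8 was among the 10 leading genes of the epithelial gate in both E9.5 libraries. The further feedback and target genes were mixed, 29 higher and 25 lower of 155. Fos, an immediate early gene, was lower in 4 of 4 gates (−1.98), while Flrt3 (0.79), an FGF receptor partner, and Myc (0.67) were each higher in 6 of 9. The adaptor Frs2, which links receptors to RAS, was higher in 7 of 9 (0.70). Transducer pairs divided 17 higher and 13 lower of 185, below the 23.1% of all pairs called in either direction, and co-receptor pairs 4 and 5 of 41, near it. Of all genes, 4.07% were higher in 6 or more of 9 gates, as Flrt3, Myc and Frs2 were. No such share was counted for genes lower in many gates, so the gate numbers of the ligands and Fos have none beside them. The pairs of a gene in different gates also share libraries.

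Between the stages the further feedback and target genes were called lower at E9.5 in 37 of 120 pairs of Ctrl and 44 of 116 of cKO, and higher in 24 and 11. Of all pairs, 15.4% were lower and 18.1% higher in Ctrl, and 14.3% and 15.6% in cKO, so the higher count of Ctrl was near the share of all genes. In Ctrl Myc was lower in 7 of 7 gates (−1.01), the phosphatases Dusp5 in 4 of 6 (−1.11) and Dusp14 in 5 of 7 (−0.83), and the transducer Hras in 6 of 7 (−0.82), while Shisa2 was higher in 5 of 7 (1.04) and Dusp9 in 4 of 7 (0.90). In cKO Dusp14 was lower in 5 of 6 gates (−1.58), Myc in 4 of 7 (−1.06), Dusp5 in 4 of 6 (−0.92), Dusp7 in 6 of 7 (−0.89) and Dusp4 in 4 of 7 (−0.85). The syndecan Sdc4, a heparan sulfate co-receptor, was lower in 7 of 7 gates of Ctrl (−1.28) and 5 of 7 of cKO (−1.09). Fgf8 was lower in 7 of 7 gates of Ctrl (−1.48) and 6 of 6 of cKO (−2.03), and Fgf10 in 6 of 6 of cKO (−1.38). In Ctrl and cKO, 11 of 24 and 15 of 21 ligand pairs were lower and 7 and 1 higher, 9 of 31 and 6 of 29 co-receptor pairs lower and 12 and 2 higher, and 26 of 142 and 18 of 141 transducer pairs lower and 12 and 4 higher, the lower transducer counts being near the shares of all pairs.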

How the data were processed

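Droplet 3′ single-cell libraries were analysed from the UMI counts per gene and cell that the authors deposited, made per the submitters' notes with Cell Ranger 3.1.0 on mm10 (GRCm38). The headers of both E8.5 matrices name 3.0.2, and cKO E9.5 was counted on a gene table of 31053 genes against 27998 in the others. Only the 27514 shared genes were used, which held 99.4% to 99.9% of the UMIs, so a gene model that differs between the tables can shift a cKO E9.5 value.

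No filter beyond the deposited cells was applied to library totals. Cells with fewer than 10000 UMIs (84 to 718 per library) were left out, the others were thinned to that depth, and each was placed in 1 of 12 gates by how many markers of a list (97 markers in all) had a UMI in it. The numbers of markers needed were set after marker detection, but not the levels of the 9 genes, had been seen. No doublet caller was run, and the 1 to 48 cells per library that met more than 1 of the main lists were left out of every gate. Unthinned UMIs were then summed per gate. Ratios carry exact conditional binomial 95% intervals, which cover counting error only, and the floor for a level of 0 was 3 UMIs. No test was possible with 1 library per group. A gene-gate pair needed 20 UMIs over both libraries and was called at 1.5-fold from the median log2 ratio of all such genes. The call rule and the interval of the ratio were tested on simulated Poisson sums, which hold no spread between cells, embryos or libraries. Gating and thinning were not part of that test.

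All 9 genes are named in every comparison. Genes of the other pathway lists are named where called in the same direction in 3 or more gates, at most 8 per comparison, the largest median first, and the 3 genes most like each of the 6 feedback and target genes were taken among those with a mean of 20 UPM or more. The members and lists were chosen with earlier results of these data known. Python 3.11.15, numpy 2.4.6, scipy 1.17.1, pandas 2.3.3 and matplotlib 3.10.9 were used. Alternatives covered the gates, the scaling, the depth and the limits.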

Additional observations from a re-analysis of the deposited data

Results flagged for a closer look

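The value of Dusp6 in the BrM gate differed in direction between the stages. Relative to the median of all genes, its log2 ratio of cKO to Ctrl was 0.68 at E8.5 and −0.28 at E9.5, and the intervals of both ratios lay apart from the median of all genes on opposite sides. With 1 library per group this difference was not tested.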

How the results depend on the processing

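No paired analysis was possible because each group is 1 library, and for the same reason no library could be left out. The 83 called values of single genes in gates gave 749 alternative values. Of these, 713 stayed within their counting interval, 31 moved outside it and 5 reversed. Some intervals are wide, so a value inside its interval may still have lost its call. Changing the minimum number of UMIs left a pair's own ratio as it was and moved only the median taken off. The reversals were Spry2 in cardiomyocytes between genotypes at E8.5 (−0.17), Fgfr2 in cardiomyocytes between stages in Ctrl (0.0596) and Fgfr2 in the somitic gate between stages in cKO (−0.10), all with cells gated on full counts, Spry4 in MLP between genotypes at E9.5 (0.0185) without the markers that differ between genotypes, and Etv5 in the somitic gate between stages in cKO (0.49) with 1 more marker required. Calls between genotypes numbered 16 at E8.5 and became 4 with 1 more marker (12 pairs left), 3 at 2-fold and 5 with 100 UMIs, and at E9.5 numbered 17 and became 3 and 11 at the last 2 settings. Calls between stages numbered 26 in Ctrl and became 15 with 1 more marker (28 pairs left) and 14 at 2-fold, and in cKO numbered 24 and became 12 at 2-fold and 15 with 100 UMIs. For the sum of 6, the relative log2 ratio between genotypes in BrM at E8.5 was 0.36 and −0.0595 with full-count gates, and in mesenchyme at E8.5 0.27 and 0.0844 without the markers that differ. At E9.5 it was 0.48 in mesenchyme, with 0.56 for full-count gates, 0.32 without those markers and 0.28 without centring. Without centring it was −0.29 in the epithelial gate, −0.36 in BrM and −0.11 in MLP, against −0.09, −0.11 and 0.13, and in MLP it was −0.14 with 1 more marker. The level of the sum in Ctrl E9.5 was 239 UPM in MLP and 186 without those markers, 303 in BrM and 328 with 1 more marker or 289 with thinned counts, and 75.7 in mesenchyme with 72.35 without those markers, 71.65 with cells weighted equally and 69.5 with thinned counts. The cause was not tested. With 1 library per group, the spread between embryos is unknown, and Spry4 and Fgfr3 are limited by their UMI numbers.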
